A study of Homo sapiens with 12 samples.

Results

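H9 cells transfected with oligonucleotides antisense to LINE1 (ASO-L1) were compared with H9 cells transfected with LINE1 oligonucleotides in the sense orientation (SO-L1). The 8 libraries, 4 per group with numbers 1 to 4, were taken by their labels from the 12 of the study. The other 4 libraries, from cells given an unspecific control oligonucleotide (ASO-Ctr), were used to mark changes that depend on the choice of control. H9 is an established line of human embryonic stem cells, grown here in RSeT, a medium made for naive pluripotency. Oligonucleotides were given at 25 nM by lipid transfection. All groups shared the rest of the treatment. DZNep at 10 nM, an inhibitor of S-adenosylhomocysteine hydrolase that lowers histone methylation, and TSA at 5 nM, a histone deacetylase inhibitor, were present until harvest at 48 h. During the first 24 h the medium also held trans-ISRIB at 0.7 µM, emricasan at 5 µM and the ROCK inhibitor Y-27632 at 10 µM. Trans-ISRIB blunts the integrated stress response and emricasan inhibits caspases. Cells were harvested without sorting for transfected cells, and polyadenylated RNA was sequenced.

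LINE1 (L1) is a family of retrotransposons that copy themselves through an RNA. An antisense oligonucleotide pairs with its RNA target and can direct RNase H to cut it, whereas a sense oligonucleotide does not pair with that RNA and serves as a control for the chemistry and for transfection. In mammalian embryos, L1 RNA is abundant after fertilisation and has been linked to the nucleolus and to the shut-down of the early cleavage programme, called the 8-cell stage in human. The integrated stress response slows general translation and raises the transcription factors ATF4, ATF3, ATF5 and DDIT3, while immediate early genes such as JUN, FOS and the KLF factors answer growth and stress signals soon after they arrive. The sequences of the oligonucleotides were not used here. The count table holds genes and no L1 elements, so the level of L1 RNA in either group was not analysed here.

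Library totals ran from 20367989 counts in SO-L1 1 to 32180891 in ASO-L1 2. The share of mitochondrially encoded RNAs was 7.28% ± 0.644 in SO-L1 and 7.10% ± 1.19 in ASO-L1 (SD, n = 4). The labels describe embryonic stem cells, and the defining markers were present: POU5F1 stood at 1048, 1084, 1053 and 1035 CPM (the count scaled to a common library size) in SO-L1 libraries 1 to 4. Of the naive markers, DPPA3 was at 56.8, 55.7, 27.7 and 31.7 CPM and DPPA5 at a mean of 131 CPM, whereas KLF17 was near 0, at 0.247, 0.480, 0.271 and 0.636 CPM. Of the primed markers, THY1 was at 46.4, 47.3, 83.8 and 88.2 CPM and SFRP2 at a mean of 79.5 CPM, while ZIC2 and DUSP6 had means of 2.42 and 2.40 CPM. Some markers of fibroblasts, the usual feeder cells, were low: in the SO-L1 group as a whole, DCN, LUM and FAP had 0 counts each, PDGFRB 22 and COL3A1 14. Others were not: THY1, given above, also marks fibroblasts, and the whole fibroblast and feeder list summed to 888 to 1040 CPM in SO-L1. The levels of COL1A1 and COL1A2 are not given here. Libraries 1 and 2 of a group resembled each other, as did 3 and 4, and the sets differed more from each other: the chi-square per gene between 2 libraries of a group was 1.72 to 3.78 within a set and 13.6 to 19.1 across sets. The labels name no batch and do not say what the numbers mark, although a normalised table of the authors, not used here, is named as batch-corrected. Nothing says that same-group libraries came from separate cultures, so p-values measure the spread between these libraries, which may in part be technical.

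With ASO-L1, 3727 genes were higher (21.6% of the 17228 tested) and 3742 were lower (21.7%) than with SO-L1. The threshold was an adjusted p (Benjamini-Hochberg) under 0.05 in edgeR's two-sided quasi-likelihood F test with the library number as a block. Most of these differences were small. The median fold was 1.22 among the higher and 1.20 among the lower genes. Large changes lay mostly on the higher side: 357 genes were higher by at least 2-fold (2.07% of the tested genes) and 46 were lower by at least 2-fold (0.267%). Of the called genes, 3444 higher and 3462 lower had 1 direction in each of the 4 pairs of libraries with equal numbers. In 2063 of the higher and 1865 of the lower genes the 4 ASO-L1 libraries lay entirely outside the range of the 4 SO-L1 libraries, which was the case for 12.7% and 11.5% of all tested genes. Without the block, 1837 genes were higher and 1660 lower. With libraries 1 and 2 summed and 3 and 4 summed, an alternative chosen after seeing the data, the counts were 3130 and 3133. Against ASO-Ctr, in a comparison that shares the ASO-L1 libraries, there were 3869 genes higher (22.5%) and 3878 lower (22.5%).

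**Figure D1:**
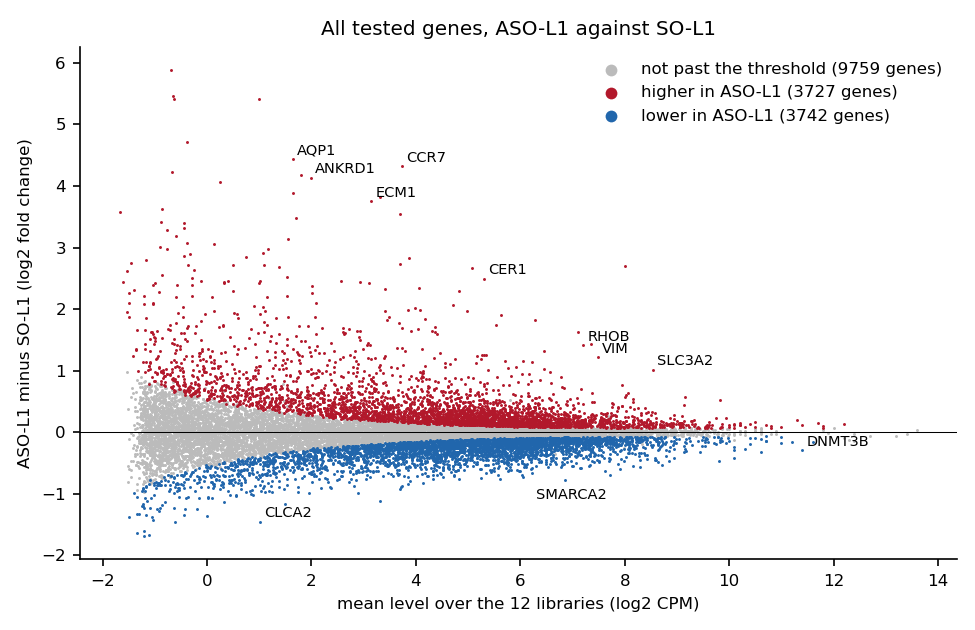
Each point is 1 of the 17228 tested genes, with its mean level in log2 CPM over the 12 libraries on the x axis and its log2 fold change of ASO-L1 over SO-L1 on the y axis. Red points (3727) are higher and blue points (3742) lower at an adjusted p under 0.05, grey points passed neither way, and the points beyond 2 on the y axis are all on the higher side.

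Among genes with a mean above 1 on the log2 CPM scale, the higher gene with the smallest p was CER1, a secreted inhibitor of Nodal and BMP signals. It stood at 21.8, 18.7, 10.8 and 10.8 CPM in SO-L1 and 116, 103, 62.4 and 67.04 CPM in ASO-L1 in libraries 1 to 4, a log2 difference of 2.50 ± 0.05 (SE; adjusted p = 4.47e-30). Within each set of libraries ASO-L1 was about as far above SO-L1, although libraries 1 and 2 had higher levels than 3 and 4 in both groups, and the groups did not overlap. RHOB, a small GTPase of stress fibres and endosomes that is also an immediate early gene, was at 96.9, 100.05, 93.4 and 94.6 CPM in SO-L1 and 259.8, 256, 252 and 258 CPM in ASO-L1. The 4 values of each group were close together, with all ASO-L1 libraries above all SO-L1 libraries (log2 difference 1.41 ± 0.03). CNN1, the actin-binding protein calponin 1, had 14.4, 14.2, 18.6 and 16.3 CPM in SO-L1 and 55.4, 59.1, 67.1 and 67.98 CPM in ASO-L1, and ATF5, a stress-induced transcription factor, had 22.5, 24.1, 27.3 and 27.7 CPM in SO-L1 and 97.1, 95.1, 95.8 and 94.1 CPM in ASO-L1. Their log2 differences were 1.97 ± 0.05 and 1.91 ± 0.05, and neither gene's groups overlapped.

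SLC3A2, the heavy chain of several amino acid transporters, rose from an already high level: it was at 261, 255, 305 and 307 CPM in SO-L1 and 518, 508, 633 and 628 CPM in ASO-L1, close to a doubling in every pair (log2 difference 1.02 ± 0.03). EMP3, a small membrane protein, was at 5.24, 5.80, 8.81 and 7.93 CPM in SO-L1 and 32.4, 31.9, 38.7 and 38.6 CPM in ASO-L1, and JUN, a subunit of the transcription factor AP-1, at 59.4, 62.2, 60.5 and 54.5 CPM in SO-L1 and 145, 154, 144 and 147 CPM in ASO-L1. Both were clearly apart between the groups, by 2.35 ± 0.07 and 1.32 ± 0.04 on the log2 scale. GADD45B, a stress-induced regulator of MAP kinase signalling, LAMA3, a chain of epithelial laminin, and LCP1, the actin bundler L-plastin, rose by 1.84 ± 0.06, 1.99 ± 0.07 and 1.15 ± 0.04 (log2). LAMA3 illustrates how the sets of libraries differ in level: it was at 3.95, 4.49, 9.58 and 10.4 CPM in SO-L1 and at 16.7, 18.5, 39.8 and 37.03 CPM in ASO-L1. ATF3, another stress-induced transcription factor, reached 61.9, 57.9, 66.3 and 70.2 CPM from 24.3, 25.7, 29.02 and 28.2 CPM. C6orf48, a host gene of small nucleolar RNAs, was at 55.1, 55.3, 53.8 and 52.9 CPM in SO-L1 and at 101, 110.2, 103 and 104 CPM in ASO-L1 (log2 difference 0.95 ± 0.04; adjusted p = 2.21e-21).

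The genes with the largest folds above the same level were at most 3.39 CPM in any SO-L1 library. AQP1, a water channel, was at 0.198, 0.0872, 0.508 and 0.593 CPM in SO-L1 and 7.88, 8.04, 8.42 and 7.27 CPM in ASO-L1, a log2 difference of 4.44 ± 0.19 (adjusted p = 4.44e-18). CCR7, a chemokine receptor of immune cells, was at 0.296, 0.393, 3.39 and 2.67 CPM in SO-L1 and 28.04, 28.1, 41.4 and 41.2 CPM in ASO-L1. Its groups were far apart, with SO-L1 libraries 3 and 4 above 1 and 2, and its log2 difference of 4.32 ± 0.39 had a wide error (adjusted p = 1.32e-04). IL24, a cytokine of the IL-10 family, was at 0.198, 0.0872, 0.948 and 0.678 CPM in SO-L1 and 5.67, 5.84, 12.6 and 11.5 CPM in ASO-L1, and KRT16, a keratin of stressed epithelium, at 0.247, 0.218, 0.745 and 0.805 CPM in SO-L1 and 7.40, 7.25, 7.76 and 8.75 CPM in ASO-L1. ANKRD1, a nuclear and sarcomeric protein induced through YAP, was at 0.544, 0.567, 0.643 and 0.254 CPM in SO-L1 and 16.9, 15.1, 3.86 and 3.66 CPM in ASO-L1, so that its ASO-L1 level was highest in libraries 1 and 2. TRH, the precursor of thyrotropin-releasing hormone, was at 0.840, 1.44, 2.44 and 2.20 CPM in SO-L1 and 23.98, 22.005, 26.2 and 27.7 CPM in ASO-L1. For IL24, KRT16, ANKRD1 and TRH the log2 differences were 4.17 ± 0.17, 3.89 ± 0.17, 4.14 ± 0.43 and 3.82 ± 0.14, and in none did the groups overlap. AQP1, IL24 and KRT16 could pass the filter on low counts only through ASO-L1. All these largest-fold genes had SO-L1 and ASO-Ctr means below the level asked for, and so reached it through ASO-L1. Their place among the largest folds thus follows in part from the selection.

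Lower genes changed by smaller folds. SMARCA2, an ATPase of the SWI/SNF chromatin remodeller, was at 157, 156, 119 and 124 CPM in SO-L1 and 85.1, 85.2, 72.7 and 78.3 CPM in ASO-L1, a log2 difference of -0.78 ± 0.04 (adjusted p = 7.69e-19). EIF3D, a subunit of the translation initiation factor eIF3, was at 273, 278, 253 and 244 CPM in SO-L1 and 192, 194, 175 and 172 CPM in ASO-L1 (log2 difference -0.52 ± 0.03). Both fell in every pair, and all 4 ASO-L1 libraries were below all 4 SO-L1 libraries. A further 9 of the 12 lower genes with the smallest p fell by between 0.48 and 0.62 on the log2 scale. They are CACHD1, ALDH7A1 (an aldehyde dehydrogenase of lysine breakdown), SEMA6A (a transmembrane semaphorin), FNBP1L (an adaptor of membrane-bound actin assembly), LITAF (a late endosomal protein), GNPTAB (which starts the mannose 6-phosphate tag of lysosomal enzymes), USP28 (a deubiquitinase), SLC25A13 (the mitochondrial aspartate-glutamate carrier) and SWAP70. The largest falls were in low-level genes. CLCA2, a regulator of chloride channels, was at 1.43, 2.14, 2.88 and 3.14 CPM in SO-L1 and 0.669, 0.753, 1.01 and 1.07 CPM in ASO-L1, with a log2 difference of -1.45 ± 0.18. BHMT2, LINC00698, CGREF1, MUC19 and XDH followed, at log2 differences of -1.17 ± 0.14, -1.12 ± 0.08, -0.99 ± 0.10, -0.99 ± 0.12 and -0.97 ± 0.16.

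**Figure D2:**
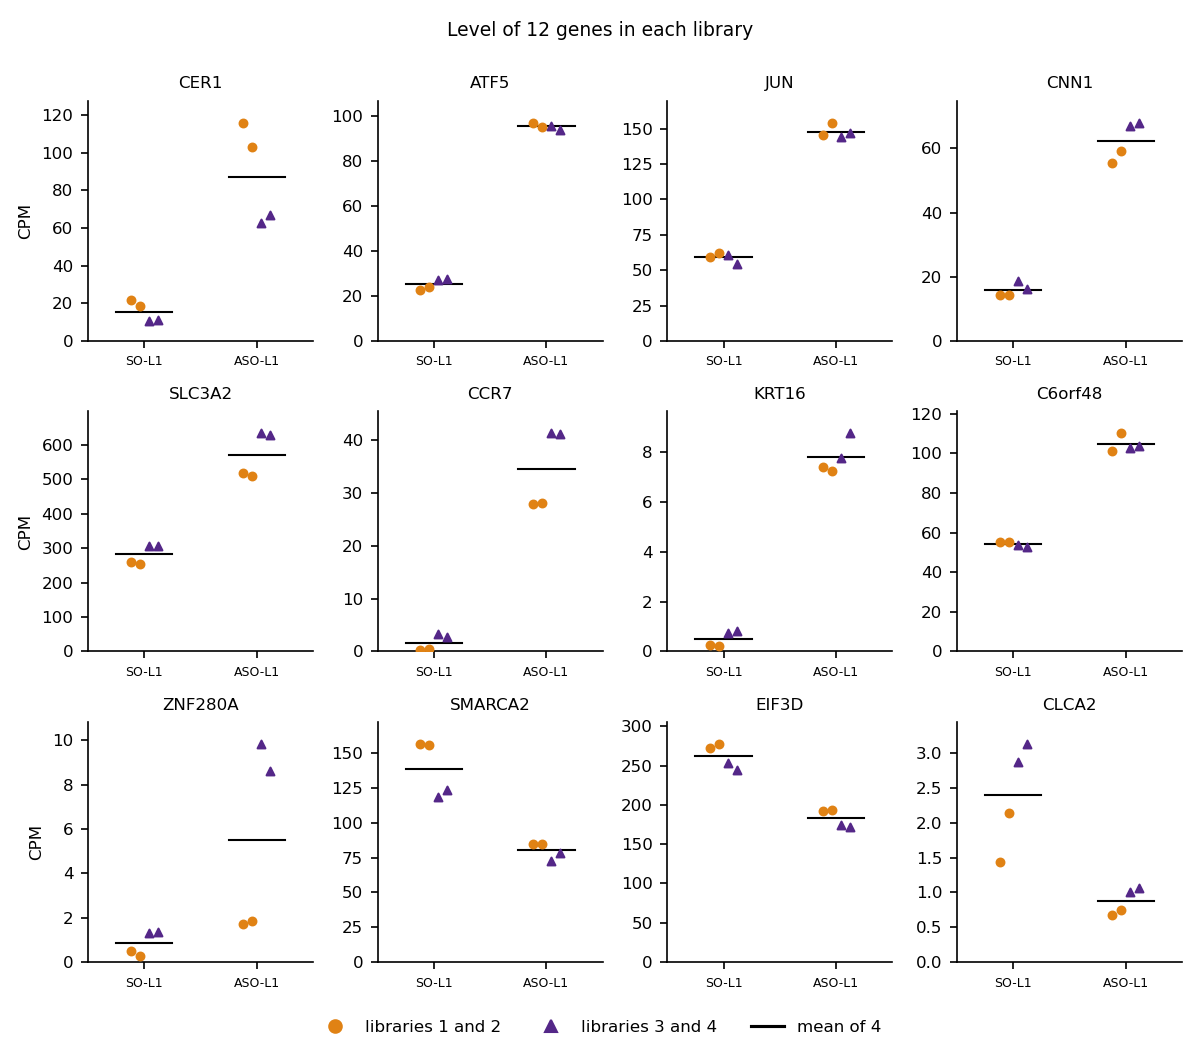
Levels in CPM (y axis, from 0) of 12 genes in the 4 SO-L1 and the 4 ASO-L1 libraries, with orange circles for libraries 1 and 2, purple triangles for 3 and 4 and a bar at the mean of 4. In all 12 genes the groups are apart. Within both groups, libraries 1 and 2 also sit apart from 3 and 4 in CER1, CNN1, SLC3A2, CCR7, KRT16, ZNF280A, SMARCA2, EIF3D and CLCA2.

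The gene lists here and below were chosen with earlier results of these data known, so their counts beside the background are a description and no test. Immediate early genes rose nearly throughout the list. Of 31 tested members, 29 were higher and 1 lower, against a background of 21.6% and 21.7% of all tested genes, and the median log2 difference was 0.77 (-0.0019 over all tested genes). Without the block 24 were higher and 0 lower, where 1837 and 1660 of all 17228 tested genes passed. The same backgrounds apply to each list below. KLF6, a zinc finger factor, was at 91.6, 89.1, 85.1 and 79.9 CPM in SO-L1 and 177, 171, 148 and 147 CPM in ASO-L1 and KLF2 at 5.88, 4.67, 5.35 and 5.34 CPM in SO-L1 and 21.97, 21.3, 19.9 and 20.3 CPM in ASO-L1 (log2 differences 0.89 ± 0.03 and 1.98 ± 0.08). With RHOB and JUN above, these 4 had the smallest p of the list, and all 4 were apart between the groups. BTG2, an antiproliferative p53 target named because it was the 1 lower member, had a log2 difference of -0.59. Of 15 ERK feedback genes, 9 were higher and 2 lower (3 and 1 without the block), with DUSP5, a phosphatase of ERK, at 15.8, 15.002, 18.3 and 18.8 CPM in SO-L1 and 33.8, 30.9, 38.5 and 37.6 CPM in ASO-L1 and the receptor EPHA2 at 10.4, 9.25, 15.7 and 16.3 CPM in SO-L1 and 20.3, 21.3, 25.9 and 26.5 CPM in ASO-L1.

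Regulators of the integrated stress response also rose on balance: 14 of 20 were higher and 2 lower, with a median log2 difference of 0.32 (11 and 1 without the block). Besides ATF5 and ATF3, PPP1R15A, which brings the phosphatase that restores translation, was at 47.9, 49.4, 49.5 and 47.1 CPM in SO-L1 and 101, 101, 114 and 118 CPM in ASO-L1. DDIT3, the factor CHOP, was at 10.4, 10.2, 13.5 and 11.2 CPM in SO-L1 and 25.6, 24.8, 33.9 and 31.7 CPM in ASO-L1. Both were apart between groups, by 1.16 ± 0.04 and 1.35 ± 0.06 on the log2 scale. The genes of amino acid supply that ATF4 is known to activate did not follow as a list: 10 of 32 were higher and 7 lower, with a median of -0.004 (4 and 3 without the block). Libraries 1 and 2 alone gave 4 higher and 12 lower, and libraries 3 and 4 alone 13 and 5. SLC3A2 and the arginine transporter SLC7A1 rose (1.02 ± 0.03 and 0.30 ± 0.03), while the seryl-tRNA synthetase SARS and the cystine transporter SLC7A11 fell (-0.42 ± 0.03 and -0.44 ± 0.06). SLC7A11, the partner of SLC3A2 in the cystine exchanger, was at 77.7, 74.4, 51.5 and 61.5 CPM in SO-L1 and 53.3, 57.9, 39.3 and 44.4 CPM in ASO-L1.

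Chaperones of the cytosol rose. Among cytosolic heat shock proteins 14 of 19 were higher and 1 lower, with a median of 0.19 (5 and 0 without the block). HSPB1, a small heat shock protein, was at 132, 140.3, 147 and 151 CPM in SO-L1 and 217, 213, 224 and 234 CPM in ASO-L1, and CRYAB, another small heat shock protein, at 5.58, 5.06, 5.93 and 5.17 CPM in SO-L1 and 15.004, 12.9, 15.1 and 15.2 CPM in ASO-L1. The co-chaperone DNAJA1 and the large HSP110 family member HSPH1 rose by 0.31 ± 0.03 and 0.26 ± 0.03 (log2). Reads of HSPA1A and HSPA1B, near-identical copies, can be split between them. Among chaperones and unfolded protein response targets of the endoplasmic reticulum 2 of 23 were higher and 5 lower (2 and 3 without the block), with a median of -0.025. The higher share, 8.7%, was below the 21.6% of all tested genes, and the lower share, 21.7%, was that of all tested genes. HERPUD1, which acts in degradation of misfolded proteins, rose by 0.74 ± 0.05, while the resident chaperones HSP90B1 and PDIA4 fell by 0.33 and 0.23 (log2). HSP90B1 was at 1602, 1550.5, 1642 and 1626 CPM in SO-L1 and 1192, 1209.7, 1323 and 1408 CPM in ASO-L1.

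The promoters of 4 genes are shown because these genes rose together and hold a match to a motif bound by AP-1 or by ATF4. Sequences are from RefSeq (GRCh38.p14), run from 250 bases before to 50 after the gene's start, and are read 5′ to 3′ on the gene's strand. Only 1 window was used per gene symbol, so other starts of a gene are not shown. Counts per gene do not tell which start was used. In LAMA3 (chr18:23872770-23873069, + strand) and ANKRD1 (chr10:90921038-90921337, - strand) the capitals mark the AP-1 motif TGANTCA. In ATF3 (chr1:212565157-212565456, + strand) and SLC3A2 (chr11:62881449-62881748, + strand) they mark TGATGNAA, the letters of the ATF4-type amino acid response element, which lies on the opposite strand in SLC3A2. The SLC3A2 window also holds 1 match to TGANTCA, left in lower case, and no stretch can match both motifs from the same first base.
LAMA3: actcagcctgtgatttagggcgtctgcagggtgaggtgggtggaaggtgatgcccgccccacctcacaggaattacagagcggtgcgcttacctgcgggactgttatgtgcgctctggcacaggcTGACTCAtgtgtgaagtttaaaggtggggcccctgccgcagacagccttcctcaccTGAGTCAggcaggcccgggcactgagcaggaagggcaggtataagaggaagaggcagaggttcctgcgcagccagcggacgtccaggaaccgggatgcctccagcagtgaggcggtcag
ANKRD1: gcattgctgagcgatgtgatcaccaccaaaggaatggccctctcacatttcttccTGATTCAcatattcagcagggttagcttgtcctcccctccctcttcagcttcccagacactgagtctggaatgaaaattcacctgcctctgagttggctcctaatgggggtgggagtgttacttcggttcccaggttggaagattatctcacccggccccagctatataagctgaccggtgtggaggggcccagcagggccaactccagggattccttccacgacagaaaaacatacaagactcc
ATF3: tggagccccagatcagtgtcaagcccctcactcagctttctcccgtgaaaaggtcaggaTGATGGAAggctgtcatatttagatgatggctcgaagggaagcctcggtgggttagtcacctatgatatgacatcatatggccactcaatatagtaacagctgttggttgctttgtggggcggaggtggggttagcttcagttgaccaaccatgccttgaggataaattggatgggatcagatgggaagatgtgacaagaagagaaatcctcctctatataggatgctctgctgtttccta
SLC3A2: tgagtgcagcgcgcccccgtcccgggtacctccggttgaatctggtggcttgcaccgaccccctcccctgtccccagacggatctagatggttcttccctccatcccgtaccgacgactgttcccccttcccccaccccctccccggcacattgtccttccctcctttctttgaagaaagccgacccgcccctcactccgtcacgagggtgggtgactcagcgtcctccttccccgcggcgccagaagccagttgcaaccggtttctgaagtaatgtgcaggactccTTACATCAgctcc
TGANTCA was found, on either strand, in 36 of the 217 promoters matched by symbol among the 357 genes higher by at least 2-fold (16.6%). Among tested genes 4.75% of 11067 matched promoters held it, and of all 27305 promoters given 7.76%. Of the 222 matched promoters of genes lower by at least 1.5-fold, 7.66% held it. Over all 3727 higher genes the share was 6.28% (164 of 2612), and in the immediate early list 1 of 26 held it. TGATGNAA was in 3 of 17 promoters of stress response regulators and in 3 of 18 of the amino acid supply genes, against 1.66% of the tested genes and 1.53% of all higher genes. These are counts of letters in a window, given as a description with no test.

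Genes of cell shape and the cytoskeleton rose. Of 25 actin, SRF and YAP target genes 19 were higher and 0 lower (0 also at an unadjusted p under 0.05, in DESeq2 and in limma-voom, but 1 in libraries 3 and 4 alone), with a median of 0.21. Without the block 11 were higher. CYR61, a matricellular YAP target, was at 22.7, 20.5, 30.4 and 27.8 CPM in SO-L1 and 41.1, 42.001, 52.1 and 52.6 CPM in ASO-L1, and MYH9, the heavy chain of non-muscle myosin, at 486, 522, 488 and 497 CPM in SO-L1 and 704, 744, 633 and 643 CPM in ASO-L1. AJUBA, an adaptor of cell junctions, differed by 0.70 ± 0.06. Among intermediate filaments and lamins 15 of 21 were higher and 1 lower (12 and 0 without the block), with a median of 0.43. KRT80 could pass the filter on low counts only through ASO-L1. VIM, the filament of mesenchymal cells, was at 133, 129, 121 and 117 CPM in SO-L1 and 340.3, 328, 244 and 263 CPM in ASO-L1, and the keratin KRT80 at 0.198, 0.262, 0.305 and 0.0848 CPM in SO-L1 and 1.73, 1.51, 1.81 and 1.48 CPM in ASO-L1. The neuronal filament gene INA rose by 0.38 ± 0.04. Of 19 S100 and annexin genes 13 were higher and 1 lower (12 and 1 without the block), with a median of 0.40. S100A14 was at 8.60, 9.38, 9.45 and 9.87 CPM in SO-L1 and 23.2, 20.5, 26.3 and 23.6 CPM in ASO-L1, S100A4 at 1.88, 1.88, 2.98 and 2.97 CPM in SO-L1 and 7.29, 7.66, 9.36 and 7.15 CPM in ASO-L1 and the membrane-binding protein ANXA2 at 252, 251, 269 and 271 CPM in SO-L1 and 359.7, 349, 376 and 374 CPM in ASO-L1. ANXA6 was the 1 lower member, at -0.44 ± 0.03.

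Matrix genes moved both ways, with 11 of 35 higher and 10 lower (3 and 3 without the block). ECM1, a glycoprotein of the dermal matrix, was at 1.68, 1.13, 1.32 and 2.42 CPM in SO-L1 and 23.6, 21.7, 22.4 and 19.98 CPM in ASO-L1 (log2 difference 3.75 ± 0.11; adjusted p = 4.87e-21). SPARC rose by 0.54 ± 0.05 and COL11A1 fell by 0.70 (log2). Some of these genes are also markers of fibroblasts. Of 14 tested fibroblast and feeder markers 9 were higher and 2 lower, and their summed level was 888 to 1040 CPM in SO-L1 and 1260 to 1330 CPM in ASO-L1. TWIST1, VIM and S100A4 rose (TWIST1 by 1.32 ± 0.09), PDGFRA fell to 16.7, 15.4, 16.8 and 18.1 CPM from 23.3, 23.9, 28.3 and 24.9 CPM, and in ASO-L1 as a whole DCN and FAP had 0 counts, LUM 2, COL3A1 7 and PDGFRB 25. The part of fibroblasts in these results was not tested. In bulk RNA, more cells of a type and more RNA per cell cannot be told apart.

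**Figure D3:**
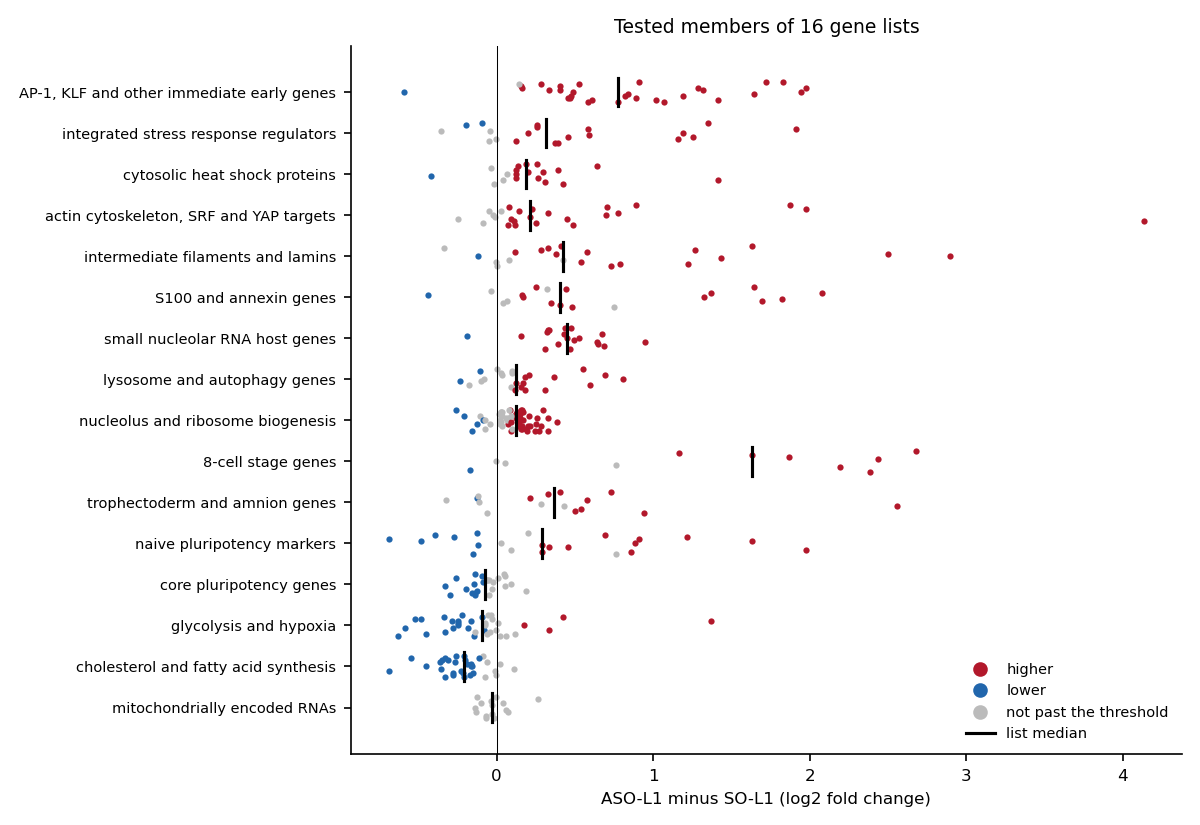
Log2 fold change of ASO-L1 over SO-L1 (x axis) for every tested member of 16 gene lists (rows), in red for higher, blue for lower and grey for genes not past the threshold, with a bar at the median. Immediate early genes lie mostly to the right (median 0.77), as do the 11 of 36 listed 8-cell stage genes that passed the filter on low counts, cholesterol and fatty acid synthesis lies to the left (median -0.21), and mitochondrially encoded RNAs are all grey.

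Most genes of sterol and fatty acid synthesis fell. Of 32 genes 25 were lower and 0 higher (0 also at an unadjusted p under 0.05, in DESeq2 and in limma-voom), with a median of -0.21, and 15 were lower without the block. DHCR7, which makes cholesterol from its last precursor, was at 126, 142, 149.8 and 148 CPM in SO-L1 and 87.97, 99.7, 98.6 and 101 CPM in ASO-L1. FDFT1, squalene synthase, was at 415, 422, 433 and 423 CPM in SO-L1 and 288, 290.1, 325 and 339 CPM in ASO-L1, and LSS, lanosterol synthase, at 197, 206, 254 and 249 CPM in SO-L1 and 165, 167, 191 and 187 CPM in ASO-L1. In these 3 genes the groups did not overlap. Of 35 glycolysis and hypoxia genes 18 were lower and 4 higher, but 1 was lower and 1 higher without the block. BNIP3L, a mitophagy receptor induced by hypoxia, was at 91.5, 92.3, 52.3 and 52.1 CPM in SO-L1 and 60.8, 59.8, 32.7 and 33.5 CPM in ASO-L1. Its level in libraries 3 and 4 was well below that in 1 and 2 in both groups. PDK1, which shuts pyruvate out of mitochondria, and KDM3A, a hypoxia-induced histone demethylase, fell by 0.52 and 0.48 (log2), and were also lower in libraries 3 and 4 than in 1 and 2 in both groups. NDRG1, also induced by hypoxia and by stress, went the other way, at 10.6, 9.29, 7.62 and 7.08 CPM in SO-L1 and 22.1, 22.5, 23.5 and 20.1 CPM in ASO-L1.

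Lysosomal and autophagy genes were higher in 13 of 24 and lower in 2 (10 and 1 without the block). SQSTM1, the autophagy receptor p62, was at 73.4, 72.4, 87.2 and 85.9 CPM in SO-L1 and 136, 137, 143 and 139.8 CPM in ASO-L1, and the proteases CTSL1 and CTSB rose by 0.60 ± 0.04 and 0.55 ± 0.04 on the log2 scale. Of 9 tested metallothioneins, a family of near-identical genes whose reads can be split, 3 were lower and 0 higher (0 also at an unadjusted p under 0.05, in DESeq2 and in limma-voom); none of the 3 passed without the block. MT1H differed by -0.15 ± 0.05, and did not pass without ASO-L1 library 4 or SO-L1 library 2 (adjusted p = 0.0624 and 0.0529).

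Host genes of small nucleolar RNAs, spliced transcripts that carry the RNAs in their introns rose. Of 19 tested, 18 were higher and 1 lower, with a median of 0.45 (17 and 1 without the block). SNHG1 was at 247, 229, 226 and 210.1 CPM in SO-L1 and 373, 375, 358 and 319 CPM in ASO-L1, ZFAS1 at 65.6, 61.6, 55.5 and 55.7 CPM in SO-L1 and 80.8, 78.2, 82.7 and 78.01 CPM in ASO-L1 and DANCR at 74.8, 74.6, 87.2 and 89.6 CPM in SO-L1 and 105, 106, 109.9 and 106 CPM in ASO-L1. The groups of these 3 did not overlap. SNHG14, an imprinted transcript and the 1 lower member, was at 924, 911, 804 and 860.1 CPM in SO-L1 and 799.6, 826, 723 and 724 CPM in ASO-L1. Many of these genes overlap others, and how strand was used in counting is not given in the sources used here, so reads of overlapping genes may be mixed.

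Nucleolar and ribosome biogenesis genes rose slightly. Of 61, 36 were higher and 5 lower, with a median of 0.13, but 10 and 3 passed without the block. NOP56, a core protein of box C/D particles, was at 292, 287, 392 and 384 CPM in SO-L1 and 377, 379, 485 and 456 CPM in ASO-L1, and RRN3, the initiation factor of RNA polymerase I, at 63.4, 58.6, 61.8 and 62.4 CPM in SO-L1 and 84.04, 80.1, 76.9 and 81.6 CPM in ASO-L1. HEATR1 fell by 0.26. NCL, nucleolin, which binds L1 RNA in mouse cells, was at 1831, 1900.1, 2091 and 2109.8 CPM in SO-L1 and 2014, 2090.5, 2119.5 and 2227 CPM in ASO-L1, a log2 difference of 0.093 ± 0.03 (adjusted p = 0.00493), and its groups overlapped (adjusted p = 0.0616 without SO-L1 library 2 and 0.272 without the block). Cytosolic ribosomal protein genes were higher in 24 of 84 and lower in 3 (28.6% and 3.57%, against 21.6% and 21.7% of all tested genes). Without the block 5 were higher and 0 lower, and 7 were higher in libraries 1 and 2 alone against 38 in 3 and 4 alone, with RPLP1 at 0.16 ± 0.03 and RPL3 at -0.17 ± 0.03. None of the 15 mitochondrially encoded RNAs passed in either direction (0 at an unadjusted p under 0.05, in DESeq2 and in limma-voom), while 3 were lower with summed sets of libraries. MT-CO1 was at 11989, 9868, 10788 and 10924 CPM in SO-L1 and 11290.0, 10689, 12442 and 8325 CPM in ASO-L1.

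The 8-cell programme, the set of transcripts of the cleavage-stage human embryo, was measured at low levels. Of 36 listed genes in the table, 11 passed the filter on low counts, 7 of them higher and 1 lower, with a median of 1.63 (6 and 0 without the block). A gene that is high only in ASO-L1 could pass the filter through that group, so the share of the 11 is not a share of all 36. ZNF280A was at 0.494, 0.262, 1.32 and 1.36 CPM in SO-L1 and 1.69, 1.85, 9.84 and 8.63 CPM in ASO-L1, and SLC34A2, a phosphate transporter, at 0.494, 0.567, 1.32 and 1.27 CPM in SO-L1 and 1.34, 2.01, 6.57 and 7.11 CPM in ASO-L1. ASO-L1 exceeded SO-L1 in every pair, and libraries 3 and 4 were several times above 1 and 2 in ASO-L1. TPRX1, a homeobox factor of genome activation, was at 0.988, 1.09, 1.96 and 1.91 CPM in SO-L1 and 2.24, 2.64, 8.90 and 8.30 CPM in ASO-L1 (log2 difference 1.87 ± 0.18; adjusted p = 2.66e-08). ZSCAN4, a telomere-associated zinc finger protein of the same stage, was at 0.0988, 0.218, 0.339 and 0.212 CPM in SO-L1 and 0.669, 0.659, 1.53 and 1.93 CPM in ASO-L1. Its group totals were 22 and 129 counts.

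CCNA1, a cyclin of germ cells and early embryos, was at 22.2, 23.2, 51.1 and 48.6 CPM in SO-L1 and 43.7, 43.5, 126 and 122 CPM in ASO-L1, and did not pass without the block (adjusted p = 0.0921). SNAI1, which also acts in epithelial to mesenchymal transition, was at 3.81, 2.66, 3.39 and 4.15 CPM in SO-L1 and 8.11, 8.91, 13.5 and 12.4 CPM in ASO-L1. ZNF296, named as the 1 lower member, differed by -0.17. KLF17 was at 0.315, 0.283, 0.939 and 1.23 CPM in ASO-L1 and did not pass (adjusted p = 0.0609). It passed without library 2 of ASO-L1 or of SO-L1 (adjusted p = 0.00788 and 0.0191). The 25 genes below the filter, 8 of them at 0 in all 12 libraries, summed to 7, 18, 37 and 22 counts in SO-L1 libraries 1 to 4 and to 30, 32, 124 and 103 in ASO-L1. KDM4E (8 counts over the SO-L1 group, 101 over the ASO-L1 group) and RFPL2 (11 and 76), both named after their counts were seen, gave 19 of the 84 counts in SO-L1 and 177 of the 289 in ASO-L1. ARGFX went the other way, with 12 and 7 counts. LEUTX had 0 and 3 counts and DUXA 1 and 2. PRAMEF, TRIM and RFPL genes have near-identical copies, so their counts are uncertain.

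Core pluripotency genes were lower in 12 of 24 and higher in 0 (0 also at an unadjusted p under 0.05, in DESeq2 and in limma-voom), with a median of -0.076 (5 lower without the block). Libraries 1 and 2 alone gave 2 higher, and libraries 3 and 4 alone 1. SOX2 was at 395, 422, 415 and 407 CPM in SO-L1 and 341, 361, 356 and 371 CPM in ASO-L1, TERF1, a telomere-binding protein, at 729, 719, 764 and 754 CPM in SO-L1 and 551, 549, 626 and 644 CPM in ASO-L1, and POU5F1 at 977, 998, 916 and 953 CPM in ASO-L1. These falls were small, -0.20 ± 0.03, -0.33 ± 0.03 and -0.14 ± 0.03 on the log2 scale. GDF3 fell by 0.26. NANOG, at 125, 131, 116 and 113 CPM in SO-L1 and 127, 118, 111 and 109 CPM in ASO-L1, did not pass (adjusted p = 0.137, and 0.0297 without ASO-L1 library 1). Naive markers moved both ways, 11 of 22 higher and 7 lower (10 and 1 without the block). KLF4 was at 37.8, 37.7, 49.3 and 47.6 CPM in SO-L1 and 76.1, 76.1, 84.4 and 86.4 CPM in ASO-L1 and TFCP2L1 at 21.5, 19.8, 18.8 and 19.9 CPM in SO-L1 and 41.8, 39.1, 32.6 and 34.1 CPM in ASO-L1, both naive transcription factors. ALPPL2, a placental-type alkaline phosphatase whose reads can be split with its copy ALPP, was at 44.6, 42.4, 125 and 119 CPM in SO-L1 and 149.7, 142, 362 and 349 CPM in ASO-L1. FGF4 went down, at 39.3, 38.2, 23.9 and 26.6 CPM in SO-L1 and 24.97, 23.4, 15.4 and 15.7 CPM in ASO-L1, and DPPA3, at 56.4, 55.1, 39.2 and 42.01 CPM in ASO-L1, did not pass (adjusted p = 0.171) but did without ASO-L1 library 2 (adjusted p = 0.0167). Primed markers were higher in 8 of 23 and lower in 6, with NLGN4X at -0.39 ± 0.04 and THY1 at 0.35 ± 0.04.

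Among genes of early lineages, 9 of 16 trophectoderm and amnion genes were higher and 1 lower (5 and 0 without the block). The filter on low counts was passed by 16 of 26 genes of this list, 10 of 15 primitive endoderm markers and 5 of 11 endothelial and blood markers. Genes such as DLX3 and GATA6 could pass only through ASO-L1, so the counts given for these lists do not describe all their genes. KRT8 was at 442, 442, 563 and 549 CPM in SO-L1 and 725, 716, 746 and 779 CPM in ASO-L1 and its partner KRT18 at 100.4, 98.9, 116 and 114 CPM in SO-L1 and 171, 154, 148 and 151 CPM in ASO-L1, and the homeobox gene DLX3 at 0.148, 0.0436, 0.339 and 0.127 CPM in SO-L1 and 0.827, 0.691, 1.29 and 1.32 CPM in ASO-L1. Nodal pathway and mesendoderm genes, of which 17 of 24 passed the filter, were split. There 6 were higher and 6 lower, with a median of -0.12 (5 and 2 without the block). CER1 and MIXL1 rose (MIXL1 by 0.65 ± 0.07) and GDF3 fell (-0.26 ± 0.04). Among BMP response genes 3 of 16 were higher and 3 lower (18.8% each way, near the 21.6% and 21.7% of all tested genes). Libraries 1 and 2 alone gave 2 higher, and libraries 3 and 4 alone 8. BMP4 was at 24.2, 26.5, 23.2 and 22.9 CPM in SO-L1 and 17.1, 16.5, 14.6 and 15.3 CPM in ASO-L1. The target ID1 was at 159, 166, 190.3 and 186 CPM in SO-L1 and 131, 129, 137 and 143 CPM in ASO-L1. GATA6, a factor of primitive endoderm, was close to 0 in SO-L1 and reached 0.709, 0.973, 1.496 and 1.40 CPM in ASO-L1 (9 and 126 counts over the groups), while of 10 tested markers of that lineage 3 were higher and 3 lower. The summed level of that list was 808 to 846 CPM in SO-L1 and 850 to 969 CPM in ASO-L1. Of 9 neuron markers 1 was higher and 3 lower (summed level 428 to 562 CPM in SO-L1 and 472 to 527 CPM in ASO-L1), with ELAVL3 at 23.9, 24.9, 26.3 and 24.4 CPM in SO-L1 and 14.3, 16.5, 19.1 and 19.3 CPM in ASO-L1. Of 5 tested endothelial and blood markers 4 were higher and 0 lower (0 also at an unadjusted p under 0.05, in DESeq2 and in limma-voom; summed level 30.7 to 51.3 CPM in SO-L1 and 46.5 to 60.5 CPM in ASO-L1), led by SOX18 at 0.791, 1.40, 1.12 and 0.848 CPM in SO-L1 and 3.86, 3.67, 2.05 and 2.84 CPM in ASO-L1.

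Among genes of Polycomb and DNA methylation, EZH2, the methyltransferase of PRC2, was at 83.3, 82.5, 115 and 110.5 CPM in SO-L1 and 69.7, 66.9, 92.3 and 93.3 CPM in ASO-L1, a log2 difference of -0.28 ± 0.03 (adjusted p = 1.71e-08). It fell in all 4 pairs of libraries, but did not pass without the block (adjusted p = 0.231). SUZ12 was at 85.4, 83.1, 84.9 and 80.9 CPM in SO-L1 and 84.98, 80.1, 81.4 and 83.6 CPM in ASO-L1 and EED at 28.9, 29.5, 29.4 and 27.4 CPM in SO-L1 and 28.9, 28.8, 33.8 and 29.8 CPM in ASO-L1; neither passed (adjusted p = 0.727 and 0.246). Of 12 PRC2 genes 2 were higher and 3 lower (16.7% and 25%, near the 21.6% and 21.7% of all tested genes). Without the block 1 was higher and 0 lower. EZH1 was at -0.24 ± 0.05 and PHF1 at 0.31 ± 0.04 in the fit with the block. Of 50 developmental regulators typically repressed by PRC2, 16 passed the filter, 7 of them higher and 2 lower (7 and 1 without the block), and some, such as GATA6, could pass only through ASO-L1, so these counts do not describe the 50. TWIST1 was at 4.45, 4.93, 5.49 and 5.04 CPM in SO-L1 and 11.9, 11.96, 13.7 and 12.2 CPM in ASO-L1 and SOX9 at 1.68, 1.57, 2.54 and 2.08 CPM in SO-L1 and 3.82, 2.92, 5.32 and 4.27 CPM in ASO-L1; SOX21 fell by 0.59. Of 13 DNA methylation genes 3 were higher and 2 lower (23.1% and 15.4%, again near the shares of all tested genes, and 1 and 1 without the block). DNMT3B, a de novo methyltransferase of pluripotent cells, was at 2718, 2837, 2858 and 2899.6 CPM in SO-L1 and 2279, 2339, 2272 and 2324 CPM in ASO-L1, and its cofactor DNMT3L at 15.7, 15.7, 10.9 and 9.54 CPM in SO-L1 and 25.4, 21.6, 18.6 and 17.6 CPM in ASO-L1. Of 39 L1 silencing and restriction factors 13 were lower and 6 higher (5 and 0 without the block; 1 higher in libraries 3 and 4 alone). SAMHD1, which degrades dNTPs, was at 191, 195, 221 and 217 CPM in SO-L1 and 132, 137, 159 and 164 CPM in ASO-L1. ATF7IP and CBX5, both of heterochromatin, fell by 0.32 and 0.24, while TRIM28, the corepressor of zinc finger proteins, was at 1176, 1182, 1204 and 1208 CPM in SO-L1 and 1296, 1278, 1269 and 1241 CPM in ASO-L1 (log2 difference 0.091 ± 0.03; adjusted p = 0.00579, 0.0567 without SO-L1 library 1 and 0.0659 without the block). Of 491 ZNF genes 152 were higher and 61 lower (31% and 12.4%, and 43.4% either way, as over all tested genes). Without the block 73 were higher and 24 lower. ZNF165 was at 1.09 ± 0.07 and ZNF664 at -0.52 ± 0.04 in the fit with the block.

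Interferon genes, which cells can raise in response to foreign nucleic acid, moved in both directions. Of 37 interferon response genes 14 were higher and 6 lower (5 and 1 without the block). ISG20, an exonuclease, was at 1.93, 2.14, 2.17 and 2.12 CPM in SO-L1 and 6.66, 5.96, 8.07 and 6.86 CPM in ASO-L1, ISG15, a ubiquitin-like modifier, at 15.1, 14.1, 17.1 and 14.6 CPM in SO-L1 and 24.97, 24.7, 26.2 and 26.8 CPM in ASO-L1, and IFI27 at 0.840, 0.567, 0.813 and 0.763 CPM in SO-L1 and 4.69, 4.80, 4.14 and 2.84 CPM in ASO-L1. TRIM22 fell, at 49.8, 50.9, 35.1 and 33.2 CPM in SO-L1 and 30.4, 31.5, 25.3 and 23.9 CPM in ASO-L1. Of 19 sensors and RNase H genes 2 were higher and 1 lower (10.5% and 5.26%, below the 21.6% and 21.7% of all tested genes). None passed without the block, and TREX1 rose by 0.40 ± 0.11. Among p53 targets 10 of 29 were higher and 11 lower (7 and 1 without the block). GADD45B and PLK2 rose (PLK2 by 1.12 ± 0.06) and AEN by 0.40 ± 0.03, whereas TNFRSF10B, a death receptor, was at 89.1, 89.4, 76.5 and 74.8 CPM in SO-L1 and 55.7, 59.05, 53.1 and 49.98 CPM in ASO-L1. Cell cycle genes were higher in 15 of 43 and lower in 8 (5 and 3 without the block), with MYBL2 at 0.40 ± 0.03, CDC20 at 0.40 ± 0.03 and CDK6 at -0.37 ± 0.04. Paraspeckle genes, of a nuclear body, were higher in 3 of 10 and lower in 2 (2 and 0 without the block), with a median of 0.008. NEAT1 and MALAT1, long nuclear RNAs, rose by 0.61 ± 0.10 and 0.57 ± 0.10, MALAT1 only with the block, and DAZAP1 fell by 0.12. Imprinted genes were higher in 6 of 24 and lower in 5 (25% and 20.8%, near the shares of all tested genes, and 2 and 3 without the block). PHLDA2 rose by 0.80 ± 0.07 and L3MBTL1 fell by 0.35. Of 23 replication-dependent histone genes 4 were higher (17.4%, below the 21.6% of all tested genes; 1 without the block), HIST3H2A by 0.61 ± 0.12.

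Few changes were seen only against the sense control. A change was counted so when it passed against SO-L1, did not pass against ASO-Ctr, and SO-L1 itself differed from ASO-Ctr in the same fit, which tests the difference between the ASO-L1 comparisons. This left 28 higher genes (0.163% of those tested) and 17 lower genes (0.0987%). Without the last condition there were 541 (3.14%) and 641 (3.72%). SO-L1 itself was higher than ASO-Ctr in 73 genes (0.424%) and lower in 170 (0.987%). Past the threshold against both controls were 3170 higher (18.4%) and 3100 lower genes (18%). The differences in these 28 and 17 genes were small, with a median log2 difference of 0.25 among the higher and -0.24 among the lower, and 1 of 28 and 2 of 17 reached 1.5-fold. In 11 of the 28 all SO-L1 libraries lay below all libraries of both other groups, and in 5 of the 17 all lay above. The genes were chosen because SO-L1 differed from both other groups, so this separation follows in part from the choice and is no support for it.

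RAB8B, a GTPase of membrane traffic, was at 46.8, 45.8, 41.7 and 38.9 CPM in ASO-Ctr, 35.9, 35.1, 33.3 and 31.998 in SO-L1 and 43.003, 43.1, 40.5 and 41.1 in ASO-L1. Its log2 difference was 0.30 ± 0.04 against SO-L1 and -0.045 ± 0.04 against ASO-Ctr (adjusted p = 7.44e-07 and 0.416). TMEM116 was at 8.52, 8.23, 6.96 and 6.73 CPM in ASO-Ctr, 5.88, 4.84, 4.30 and 4.83 in SO-L1 and 7.01, 7.22, 6.99 and 7.15 in ASO-L1. IARS, the isoleucyl-tRNA synthetase, was at 469, 490.4, 474 and 483 CPM in ASO-Ctr, 426, 415, 423 and 426 in SO-L1 and 514, 502, 481 and 490.3 in ASO-L1. In these 3 genes and in C12orf4 the SO-L1 group stood alone below the others. DTNA, a dystrobrevin, and DCTN4, a dynactin subunit, differed by 0.54 ± 0.07 and 0.21 ± 0.04 against SO-L1 and by 0.15 ± 0.07 and 0.016 ± 0.04 against ASO-Ctr, with SO-L1 libraries that overlapped those of other groups. Among the lower genes, MOBP, a myelin protein here at a low level, was at 1.43, 1.98, 1.31 and 1.24 CPM in ASO-Ctr, 2.96, 3.79, 3.08 and 3.01 in SO-L1 and 1.89, 2.35, 1.63 and 1.44 in ASO-L1. ACSL3, which activates long-chain fatty acids, TNRC18, NFATC4, a calcium-responsive factor, and TMEM70, an assembly factor of ATP synthase, fell by 0.13, 0.24, 0.26 and 0.17 against SO-L1. Against ASO-Ctr their log2 differences were 0.053 ± 0.03, -0.012 ± 0.05, 0.026 ± 0.05 and 0.03 ± 0.05.

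These counts rest on few libraries. Without SO-L1 library 2 they were 17 higher and 5 lower, without SO-L1 library 3 they were 18 and 10, and with libraries 1 and 2 summed and 3 and 4 summed they were 9 and 3. Without the block 1 gene, not among the 28, was higher and 0 were lower in edgeR (45 and 43 by the same rule at an unadjusted p under 0.05; with the block DESeq2 gave 23 and 5 and limma-voom 30 and 14).

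A further 17 genes passed in opposite directions against the 2 controls, 16 higher (0.0929%) and 1 lower (0.0058%) against SO-L1, and in all 17 SO-L1 differed from ASO-Ctr. They fall outside the rule for named genes, and those given here were chosen after their values were seen. MYO6, an actin motor, was at 125, 124, 127 and 129.8 CPM in ASO-Ctr, 80.8, 77.6, 82.1 and 80.9 in SO-L1 and 106, 105, 107 and 118 in ASO-L1. ASO-L1 lay between the controls, 0.44 ± 0.03 above SO-L1 and 0.22 below ASO-Ctr on the log2 scale. SNAP23, a membrane fusion protein, was at 62.2, 61.2, 53.5 and 57.4 CPM in ASO-Ctr, 42.8, 41.4, 42.7 and 43.4 in SO-L1 and 52.7, 55.4, 52.7 and 55.9 in ASO-L1. PPP2R3A, a phosphatase subunit, had its highest mean in SO-L1, at 39.4, 38.7, 32.3 and 28.9 CPM against 31.9, 34.9, 24.9 and 27.2 in ASO-L1.

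**Figure D4:**
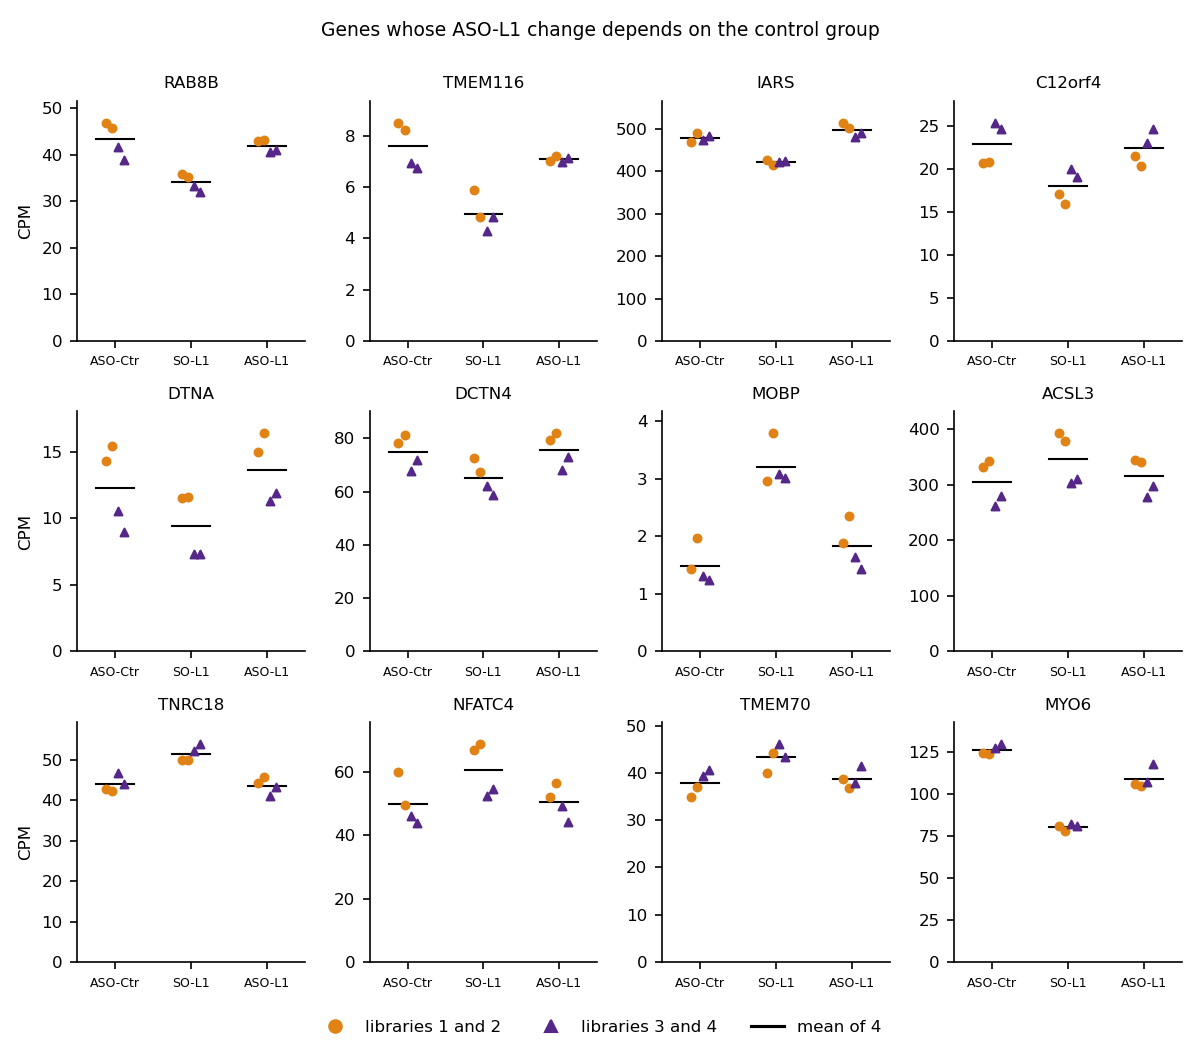
Levels in CPM (y axis, from 0) of 12 genes in the 4 libraries of ASO-Ctr, SO-L1 and ASO-L1, with orange circles for libraries 1 and 2, purple triangles for 3 and 4 and a bar at the mean of 4. Of RAB8B, TMEM116, IARS and C12orf4 the SO-L1 libraries are all below the others, and in MYO6 the ASO-L1 libraries lie between the controls.

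Of the genes past the threshold against both controls in the same direction, the size differed in 38 of 3170 higher and 65 of 3100 lower genes, and it was larger against SO-L1 in 7 and 12 of them. PPP1R15A was higher by 1.16 ± 0.04 against SO-L1 and by 1.41 ± 0.04 against ASO-Ctr, since SO-L1 itself was above ASO-Ctr by 0.25 ± 0.05 (adjusted p = 0.0013). The change was also larger against ASO-Ctr for TWIST1 (1.32 ± 0.09 and 1.94 ± 0.09), SQSTM1 (0.81 ± 0.04 and 1.02 ± 0.04), ANXA2 (0.48 ± 0.03 and 0.66 ± 0.03), ATF3 and RHOB. THY1 and ELAVL3 changed more against SO-L1 (0.35 ± 0.04 and -0.53 ± 0.06) than against ASO-Ctr (0.13 ± 0.04 and -0.19 ± 0.06). CER1, ATF5 and SMARCA2 differed between SO-L1 and ASO-Ctr by 0.16 ± 0.06, 0.03 ± 0.05 and 0.10 ± 0.04, none past the threshold (adjusted p = 0.292, 0.931 and 0.231).

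The size of the change also depended on the set of libraries. The difference between libraries 3 and 4 and libraries 1 and 2 in the ASO-L1 minus SO-L1 change, tested as an interaction in edgeR, passed for 405 of 17228 genes, 131 with a larger and 274 with a smaller value in libraries 3 and 4. Of these 254 were also called in the comparison itself. CCR7 changed by 6.32 in libraries 1 and 2 and by 3.75 in 3 and 4 (log2), ANKRD1 by 4.83 and 2.996, and KRT18 by 0.70 and 0.38. The 8-cell gene CCNA1 went the other way, with 0.94 and 1.32. ZNF280A, ZSCAN4, SLC34A2 and TPRX1 also had larger values in libraries 3 and 4, but for these the difference did not pass.

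**Figure D5:**
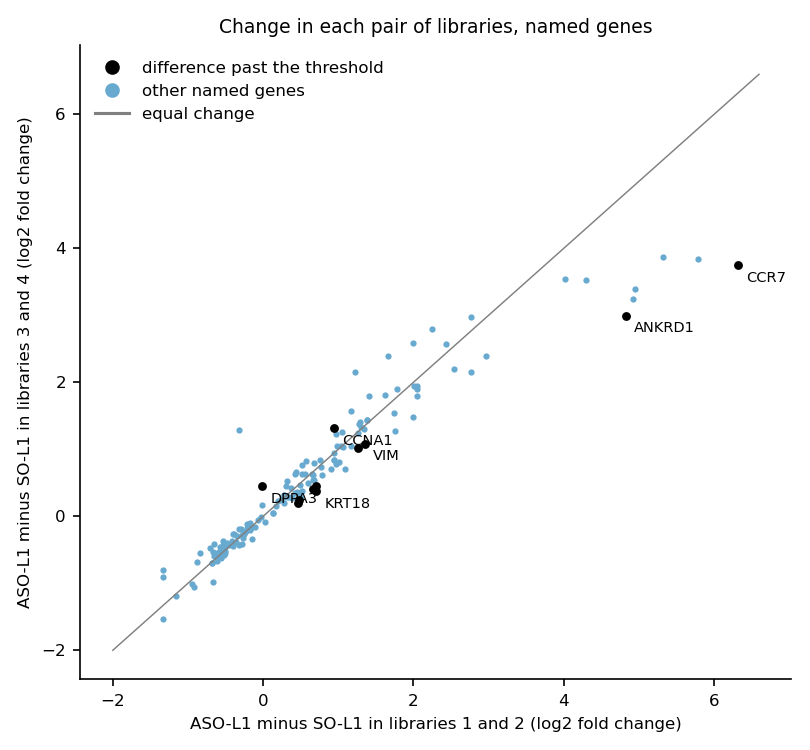
Log2 fold change of ASO-L1 over SO-L1 in libraries 1 and 2 (x axis) and in libraries 3 and 4 (y axis) for 159 of the 196 genes named by rule, with a line at equal change. The 11 black points, among them CCR7, ANKRD1 and CCNA1, are genes whose change differs between the sets at an adjusted p under 0.05.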

How the data were processed

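The authors deposited 1 table of counts per gene for 12 libraries. Per the submitters' processing notes, Trim Galore 0.4.0, TopHat2 2.0.13, featureCounts from Subread 1.5.0 and the build hg19 were used. The table is marked rmDup, a tag the sources used here do not explain, and the strand setting of the counting is not given in them. Per the labels' protocols the libraries were stranded and made from polyadenylated RNA. All 12 columns matched a sample, so 0 were left out, and 1 blank row (10 counts) was dropped.

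From the deposited counts, 17228 of 53712 genes passed edgeR's filter (minimum count 10, minimum total 15). Counts were scaled by TMM and fitted with edgeR 4.0.16 (robust quasi-likelihood, R 4.3.3) over all 12 libraries, with group and library number as terms. Pooling the groups gives 1 estimate of the spread. The test was two-sided, with p-values adjusted over all tested genes by the Benjamini-Hochberg method (threshold 0.05). SE is the log2 fold change divided by the square root of F. CPM values use the TMM-scaled library sizes. CPM is not divided by gene length, so it compares a gene between libraries and not genes with each other. The library number was used as a block because the rule set for this comparison asked for it. Deviations from the group means correlated at 0.450 to 0.561 for same-number libraries of different groups. Between ASO-L1 and SO-L1 alone they correlated at 0.457 to 0.507 for the same number. The values there were 0.457 to 0.492 for 1 with 2 and 3 with 4, and -0.528 to -0.442 for other numbers. They set the sets of libraries apart and do not separate the numbers within a set.

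Genes were named by a rule: past the threshold, moved the same way in all 4 pairs and mean log2 CPM above 1, then the 12 higher and 12 lower with the smallest p and the 6 higher and 6 lower with the largest fold. Up to 4 members of each list with the smallest p (2 most abundant where none passed), 6 and 6 of the changes seen only against SO-L1, and a set of fixed genes were added. Exceptions are stated in the text, and 1 gene that the rule names is not reported here. The gene lists, the comparison and these rules were chosen with earlier results of these data known. Alternatives were no block, only the 8 libraries compared, DESeq2 1.42.0, limma-voom (limma 3.58.1), RLE size factors, no filter, a minimum fold of 1.5, each library left out, each set alone and, added after seeing the data, summed sets. The fits were tested on simulated data. Promoters came from RefSeq (GRCh38.p14), matched by symbol, with coordinates of that build only. The authors' own table of called genes, and their log2 normalised table, which is named as batch-corrected, were not used.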

Additional observations from a re-analysis of the deposited data

Results flagged for a closer look

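Among 318 groups of 4 libraries (159 of the 196 genes named by rule, those followed through the alternatives, in SO-L1 and ASO-L1), 4 held a library far from the other 3. The cut is one that about 1 in 20 groups of independent, normally spread values would pass. Libraries 1 and 2, and 3 and 4, resembled each other, so that rate does not apply here and no comparison with it is drawn. The gap to the nearest library was 0.861 of the group's range for LINC00698 in ASO-L1, where library 3 was at 7.13 CPM and the others at 5.30 to 5.56 CPM. It was 0.859 for the myelin gene MOBP in SO-L1 (library 2 at 3.79 CPM, others 2.97 to 3.08 CPM). For CRYAB in ASO-L1 it was 0.913 (library 2 at 12.9 CPM, others up to 15.2 CPM), and for DHCR7 in ASO-L1 0.839 (library 1 at 88.0 CPM, others 98.6 to 100.7 CPM).

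In 11 of the 159 genes the change differed between the sets of libraries, tested as an interaction in edgeR's quasi-likelihood test over all genes. Given as libraries 3 and 4 minus 1 and 2, the difference in log2 change was -2.56 for CCR7 and -1.83 for ANKRD1. It was -0.24 for LCP1 (1.27 in 1 and 2, 1.03 in 3 and 4), -0.27 for VIM (1.35 and 1.09) and -0.26 for SPARC (0.67 and 0.40). Epithelial keratins also rose less in libraries 3 and 4, with -0.25 for KRT8, -0.32 for KRT18 and -0.26 for KRT19 (0.46 and 0.20), and the primed marker THY1 had -0.24 (0.48 and 0.24). Larger in libraries 3 and 4 were the 8-cell gene CCNA1, by 0.38, and the naive and germline gene DPPA3, by 0.47 (-0.014 and 0.46), which did not pass over all 4 pairs. Over all 196 genes the difference passed in 12, the added one being the endothelial receptor TEK (1.90 in libraries 1 and 2, 0.45 in 3 and 4). Over all tested genes the difference passed in 405, of which 163 had opposite signs in the sets.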

How the results depend on the processing

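The counts of higher and lower genes (3727 and 3742) were within 1.5 times those under DESeq2 (2924 and 2962), limma-voom (3491 and 3615), RLE size factors (3670 and 3793), no filter (3691 and 3549) and the 8 libraries alone (3552 and 3591). Leaving out 1 library gave 3184 to 3471 higher and 3202 to 3643 lower genes. Without the replicate block, that is without the pairing by number, 1837 were higher and 1660 lower, of which 1837 and 1659 were among those called with it. A test against a fold of at least 1.5 left 354 and 24.

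The counts seen against SO-L1 and not ASO-Ctr (28 and 17) were less stable. Without the pairing they were 1 and 0, with DESeq2 the lower count was 5, and without the filter it was 27. Leaving out 1 library gave 17 to 34 higher and 5 to 25 lower genes. Libraries 1 and 2 alone gave 15 and 11, libraries 3 and 4 alone 52 higher genes, and summed sets 9 and 3, with 7 and 3 shared. The 8-library fit holds no ASO-Ctr and gives no such value. The cause was not tested.

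Of 196 genes named by rule 189 passed. The 159 followed through the alternatives include 153 that passed, and 0 of these reversed. Without the block 24 no longer passed: LITAF, CGREF1, DTNA, DCTN4, ACSL3, NFATC4, TMEM70, DNAJA1, MT1H, BNIP3L, PDK1, KDM3A, TREX1, NOP56, NCL, EZH2, EZH1, CBX5, TRIM28, THY1, CCNA1, RPL3, CDK6 and MALAT1. When 1 library was left out, 3 no longer passed in at least 1 case (MT1H, NCL and TRIM28). Genes that changed sign were not past the threshold: SUZ12 ranged from -0.050 to 0.0073 when 1 library was left out (0.0073 without ASO-L1 library 2, 0.0019 without SO-L1 library 1) and was at 0.00062 in libraries 3 and 4. In libraries 1 and 2 alone EED was at -0.021, DPPA3 at -0.016, KLF17 at -0.32 and MT-CO1 at 0.020. MT-CO1 ranged from -0.14 to 0.092 with 1 library left out, and was at 0.020 without ASO-L1 library 1, 0.092 without ASO-L1 library 4 and 0.0096 without SO-L1 library 4. Of the 36 8-cell genes 25 fell below the filter, and a group total of 0 counts allows up to 3, or 0.0312 CPM in SO-L1 and 0.0272 CPM in ASO-L1, for counting error only.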

Other observations

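Several abundant genes with large changes fell outside the rule for named genes and were chosen after their values were seen. FLNC, the muscle-type actin cross-linker filamin C, was at 65.5, 73.7, 119 and 116 CPM in SO-L1 and 619, 646, 565 and 535 CPM in ASO-L1 in libraries 1 to 4, a log2 difference of 2.70 ± 0.23 (adjusted p = 9.67e-05 in edgeR's quasi-likelihood test). The groups were far apart, and the change was smaller in libraries 3 and 4 (2.23) than in 1 and 2 (3.18). HSPB8, a small heat shock protein that works with filamin in chaperone-assisted autophagy, was at 9.59, 9.68, 13.8 and 15.6 CPM in SO-L1 and 80.4, 85.2, 73.9 and 71.1 CPM in ASO-L1. LMNA, lamin A/C, rose from 87.2, 87.2, 131 and 129 CPM to 278, 292, 289 and 292 CPM. In all 3 genes the SO-L1 libraries 3 and 4 stood above 1 and 2, and the change was smaller in libraries 3 and 4 for HSPB8 (2.31 against 3.10) and LMNA (1.16 against 1.71) as well.

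SFN, the epithelial protein 14-3-3 sigma, was at 8.80, 9.20, 17.2 and 16.5 CPM in SO-L1 and 51.5, 49.8, 57.7 and 56.6 CPM in ASO-L1, and the laminin chain LAMB3, a partner of LAMA3, at 3.31, 2.79, 6.604 and 6.06 CPM in SO-L1 and 31.9, 30.5, 35.1 and 35.9 CPM in ASO-L1. Both groups of libraries were apart in each. The tight junction protein CLDN4 rose by 2.02 ± 0.23 on the log2 scale and the small GTPase RRAD by 2.74 ± 0.27. The changes of SFN, LAMB3, CLDN4 and RRAD were also smaller in libraries 3 and 4 (1.76, 2.48, 1.57 and 2.32) than in 1 and 2 (2.49, 3.36, 2.52 and 3.42), past the threshold of the interaction. The microtubule regulator STMN4 was at 1.78, 2.01, 3.83 and 3.26 CPM in SO-L1 and 28.5, 28.5, 36.3 and 34.6 CPM in ASO-L1 (log2 difference 3.54 ± 0.10; adjusted p = 1.05e-18). The hair and skin keratins KRT75 and KRT17 were near 0 in SO-L1 and could pass the filter on low counts only through ASO-L1. KRT75 was at 0.0494, 0.0436, 0.237 and 0.127 CPM in SO-L1 and 2.13, 2.86, 8.24 and 7.60 CPM in ASO-L1 and KRT17 at 0.0988, 0.131, 0.339 and 0.509 CPM in SO-L1 and 1.42, 1.41, 1.46 and 2.01 CPM in ASO-L1. KRT75 has close relatives among the type II keratins, so its reads may be shared with them.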
